A study of Mus musculus with 9 samples.

Results

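The alpha- and beta-tubulin isotype genes Tubb3, Tubb2a, Tubb2b, Tuba1a, Tubb5, Tubb4b, Tubb6, Tuba1b, Tuba1c and Tuba4a were followed in RNA-seq counts of the murine T-cell lymphoma line T15. These 10 genes were taken by symbol, out of 35288 genes listed by Ensembl identifier, by a rule that sets no threshold on their counts. Tubb3, Tubb2a, Tubb2b and Tuba1a were read as 4 neuronal isotypes, Tubb5, Tubb4b, Tubb6, Tuba1b and Tuba1c as 5 general isotypes, and Tuba4a was left unclassed. T15 is a Smarcb1-negative line from a murine peripheral T-cell lymphoma (PTCL) model, in which Cd4-cre removes floxed Smarcb1 in T cells, so that all 9 libraries share this loss. The groups were Control, SAHA and Smarcb1-RE, with 3 libraries each. SAHA cells received 1 µM of SAHA (vorinostat, an inhibitor of histone deacetylases), given repeatedly within 72 h. For T15 cells at this concentration the authors report strong apoptosis, with most cells dead. Smarcb1-RE cells carried a lentiviral Smarcb1 cDNA in pInducer20, were selected with G418 and had the cDNA switched on by doxycycline (Dox, 0.5 µg/µl, 72 h). After re-expression the authors report reduced cell growth, with viability and cell cycle not affected. The part of cell death and growth in the values below was not tested. The sources used here name untreated cells, a vehicle and a control plasmid with Dox as controls, without saying which of these the 3 Control libraries had. Stable clones were established after selection, and whether the Smarcb1-RE libraries share a clone is not stated. Effects of transduction, G418, clone choice and Dox therefore cannot be told apart from those of Smarcb1 in Smarcb1-RE against Control. All groups are of a single cell line, and the replicates are described as biological without further detail, so p-values measure the spread between these libraries.

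Microtubules are hollow polymers of alpha/beta-tubulin dimers. Mammals make several alpha and beta isotypes from separate genes, whose proteins differ mainly in the acidic C-terminal tail, where microtubule-associated proteins bind and enzymes add glutamates or remove the last tyrosine. Dividing lymphoid cells mostly use Tubb5, Tubb4b and Tuba1b, whereas Tubb3 (class III beta-tubulin), Tubb2a, Tubb2b and Tuba1a are known from developing and mature neurons.

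RefSeq upstream sequences (GRCm38.p6) were found for 8 of the 10 genes, and those of 4 beta isotypes with unlike responses are shown, because these genes moved by different amounts or in different directions. Each runs 5′ to 3′ on the strand of its gene and ends before the first annotated exon base, and capitals mark matches on either strand to the letters CCAAT, to a GC box, searched as GGGCGG, or to a TATA box, searched as TATAAA. Tubb4b (chr2:25224703-25224952, minus strand) fell most in Smarcb1-RE among the isotypes of high level, Tubb5 (chr17:35838307-35838551, minus) is the main beta isotype, Tubb2a (chr13:34078009-34078258, minus) rose in SAHA, and Tubb3 (chr8:123411303-123411423, plus) rose in Smarcb1-RE.
Tubb4b: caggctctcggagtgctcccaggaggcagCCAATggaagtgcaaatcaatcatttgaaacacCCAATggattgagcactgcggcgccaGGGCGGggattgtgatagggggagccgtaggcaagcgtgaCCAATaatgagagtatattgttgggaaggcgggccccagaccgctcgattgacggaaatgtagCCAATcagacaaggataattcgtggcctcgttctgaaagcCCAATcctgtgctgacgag
Tubb5: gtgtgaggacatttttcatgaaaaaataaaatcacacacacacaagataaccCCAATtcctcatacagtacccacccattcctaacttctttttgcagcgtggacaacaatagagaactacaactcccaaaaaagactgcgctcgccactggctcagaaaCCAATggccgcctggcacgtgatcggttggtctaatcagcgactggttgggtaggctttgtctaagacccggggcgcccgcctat
Tubb2a: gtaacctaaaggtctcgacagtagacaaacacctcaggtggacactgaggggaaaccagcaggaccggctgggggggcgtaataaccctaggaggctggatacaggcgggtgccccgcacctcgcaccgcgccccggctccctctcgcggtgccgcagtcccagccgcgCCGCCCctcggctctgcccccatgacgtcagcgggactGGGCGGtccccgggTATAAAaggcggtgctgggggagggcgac
Tubb3: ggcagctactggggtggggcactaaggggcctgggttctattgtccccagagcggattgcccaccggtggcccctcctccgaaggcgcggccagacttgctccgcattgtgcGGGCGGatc
The letters CCAAT occurred 5 times in the 250 bases before Tubb4b and 2 times before Tubb5. Of 32851 promoters of the same length, 33.8% held CCAAT at least once, 10.1% at least 2 times and 0.213% at least 5 times, the last count being taken after the Tubb4b sequence had been seen. Before Tubb2a stood 2 GC boxes and 1 TATAAA, and the 121 bases shown for Tubb3 held 1 GC box. In the full 250-base window of Tubb3, which runs into annotated exon, there were 2 GC boxes and 1 CCAAT. Of the windows not shown, those of Tuba1a and Tuba1c held 1 CCAAT each, with 1 and 0 GC boxes. The windows of Tuba1b and Tuba4a, which also fell in Smarcb1-RE, held 0 CCAAT and 2 GC boxes each. Except for that of Tuba1c, these windows run into annotated exon. GC boxes were found in 32.7% of all promoters and TATAAA in 12.4%. Such matches describe the letters only, and factor binding was not measured.

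Library totals lay between 24564919 and 24941494 estimated counts in Control, between 23403494 and 24189992 in SAHA and between 20900477 and 21911177 in Smarcb1-RE, so that 3 counts, taken as the detection floor, were worth 0.12 to 0.144 CPM (counts scaled to library size; counting error only). The spread among replicates was small, with a common biological coefficient of variation of 5.24%. Control replicate 1 differed most from its group, with a chi-square per gene of 13.4 and 15.0 against the other Control libraries. Smarcb1 had 2, 5 and 8 counts in Control, 7, 13 and 3 with SAHA and 151, 147 and 142 in Smarcb1-RE, a log2 fold change of 4.89 in Smarcb1-RE (SE 0.36, edgeR adjusted p = 6.19e-08). Summed T-cell markers lay between 2577 and 2881 CPM over all libraries, although Cd4 was at 0, Cd2 and Cd5 had at most 3 counts in any library and Thy1 at most 6. All 10 isotypes passed the filter on low counts among 13697 tested genes. Counts were normalized by the trimmed mean of M-values (TMM), and a gene was called at an adjusted p under 0.05 in edgeR (quasi-likelihood test, adjusted by Benjamini-Hochberg over all tested genes). With library totals instead of TMM, the median over all genes of the log2 difference between Smarcb1-RE and Control moved from 0.01 to 0.17, and the share of calls that were higher from 50.4% to 61.0%.

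The first question was which isotypes moved when T15 cells were given SAHA. SAHA raised 4 isotypes (Tubb2a, Tubb2b, Tubb6, Tuba4a) and lowered 5 (Tubb5, Tubb4b, Tuba1a, Tuba1b, Tuba1c), while Tubb3 did not pass the test. Over all tested genes, 32.6% were called higher and 34.3% lower. The median log2 fold change was 0.31 for the neuronal isotypes, -0.53 for the general isotypes and 0.00 over all tested genes. Smarcb1-RE against Control gave 1 isotype higher (Tubb3), 8 lower and 1 not called (Tubb2a), beside 39.2% and 38.6% of all tested genes. In Smarcb1-RE the medians were -0.60 for the neuronal and -1.39 for the general isotypes. At an absolute log2 fold change of at least 1, SAHA had 2 isotypes higher and 0 lower, where 9.85% and 2.35% of all genes passed, and Smarcb1-RE had 0 higher and 7 lower, where 16.9% and 6.78% passed. Every isotype that was called had no overlap between the libraries compared, beside 33.8% (higher) and 34.9% (lower) of all tested genes without overlap in SAHA and 40.4% and 39.1% in Smarcb1-RE. These shares are over all tested genes, called or not, and lie near the shares called. They therefore do not measure how often called genes overlap. Both comparisons share the Control libraries. In bulk RNA, less RNA per cell and fewer cells of a kind cannot be told apart.

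**Figure D1:**
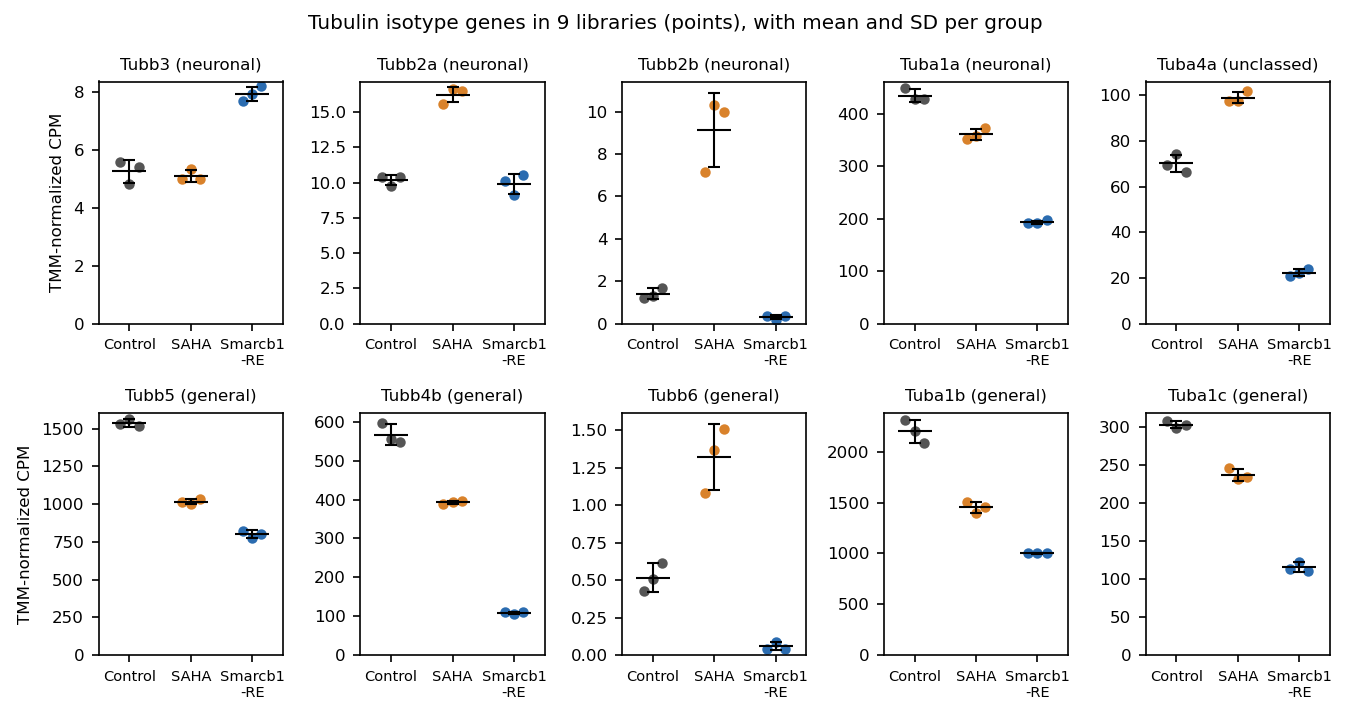
TMM-normalized CPM (vertical axes, each from 0) of the 10 isotypes in the 9 libraries (points), with horizontal bars for the mean and whiskers for the SD of 3 libraries per group. Tubb3 was highest in Smarcb1-RE, Tubb2a, Tubb2b, Tubb6 and Tuba4a were highest in SAHA, and the other 5 fell from Control through SAHA to Smarcb1-RE.

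Among the neuronal beta isotypes, Tubb3 (ENSMUSG00000062380, chromosome 8, 123411424 to 123422015, plus strand, GRCm38), the usual marker of neuronal beta-tubulin, had 131, 114 and 131 counts in Control, 115, 121 and 116 with SAHA and 180, 179 and 190 in Smarcb1-RE. SAHA and Control libraries overlapped, and every Smarcb1-RE library lay above them. The Tubb3 level was 5.26 ± 0.392 CPM (SD, n = 3) in Control, 5.11 ± 0.207 in SAHA and 7.93 ± 0.257 in Smarcb1-RE. The difference from Control was -0.04 in SAHA (log2, SE 0.10, edgeR adjusted p = 0.737) and 0.59 in Smarcb1-RE (SE 0.10, edgeR adjusted p = 0.000111), a rise of 1.51-fold. Gm20388, an annotated gene that spans all of Tubb3 on the same strand and was looked up after the values were seen, had 674 to 1837 counts and fell in both treatments, with log2 fold changes of -0.38 in SAHA (edgeR adjusted p = 0.0388) and -0.82 in Smarcb1-RE (edgeR adjusted p = 0.000294). Of the 75-base stretches of the longest Tubb3 transcript, 0% occur in annotated transcripts of other genes. Of its 31-base stretches 3.26% do, most often in Tubb6 (2.34%). How reads were divided between Tubb3 and Gm20388 was not tested.

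Tubb2a (ENSMUSG00000058672, chromosome 13, 34074274 to 34078007, minus strand), a beta isotype abundant in brain, had 244, 231 and 253 counts in Control, 359, 376 and 382 with SAHA and 237, 206 and 244 in Smarcb1-RE. Only the SAHA libraries stood apart from the other groups. SAHA raised Tubb2a by 0.67 on the log2 scale (SE 0.07, edgeR adjusted p = 4.72e-06), or 1.59-fold. In Smarcb1-RE the difference was -0.04 (SE 0.08, edgeR adjusted p = 0.669), and with library totals its sign turned (0.12). Tubb2b (ENSMUSG00000045136, chromosome 13, 34126748 to 34130466, minus strand), a close copy of Tubb2a needed in cortical development, had 28, 31 and 41 counts in Control, 165, 232 and 233 with SAHA and 8, 4 and 8 in Smarcb1-RE. No 2 groups overlapped. Tubb2b rose by 2.71 (log2, SE 0.20, edgeR adjusted p = 1.68e-07; 6.52-fold) in SAHA, and fell by 2.25 (SE 0.31, edgeR adjusted p = 2.36e-05) in Smarcb1-RE. Between Smarcb1-RE and SAHA the log2 difference of Tubb2b was -4.96 (SE 0.26, edgeR adjusted p = 2.91e-09).

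Tubb2a and Tubb2b transcripts share sequence. Of their 75-base windows, 43.2% for Tubb2a and 32.2% for Tubb2b also occur in transcripts of other genes (56.4% and 45.9% at 31 bases). Their counts were therefore also summed. The sum was 11.6 ± 0.508 CPM (SD, n = 3) in Control, 25.4 ± 2.31 in SAHA and 10.2 ± 0.814 in Smarcb1-RE. As a sum the rise in SAHA stayed (log2 fold change 1.13, edgeR adjusted p = 1.33e-07), and the value in Smarcb1-RE was -0.18 (edgeR adjusted p = 0.0816), which did not pass the test. Tubb2b made up 12.02% ± 1.83 (SD, n = 3) of this sum in Control and 2.78% ± 0.761 in Smarcb1-RE, so the sum by its construction cannot show a fall of Tubb2b, and how the authors' quantification divided their reads is not given in the sources used here.

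Tuba1a (ENSMUSG00000072235, chromosome 15, 98949837 to 98953703, minus strand), the main alpha isotype of developing neurons, had 10552, 10132 and 10416 counts in Control, 8131, 8102 and 8653 with SAHA and 4474, 4332 and 4576 in Smarcb1-RE. The 3 groups did not overlap. Tuba1a fell by 0.27 (log2, SE 0.04, edgeR adjusted p = 4.76e-05) in SAHA and by 1.17 (SE 0.04, edgeR adjusted p = 6.88e-11) in Smarcb1-RE. Its direction was that of the general alpha isotypes, not that of Tubb2a or Tubb2b in SAHA or of Tubb3 in Smarcb1-RE.

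Both main general beta isotypes fell in each treatment. Tubb5 (ENSMUSG00000001525, chromosome 17, 35833921 to 35838306, minus strand), the main beta isotype of lymphoid cells, had 36054, 37009 and 36825 counts in Control, 23377, 22703 and 23992 with SAHA and 19301, 17527 and 18668 in Smarcb1-RE. It fell by 0.60 (log2, SE 0.04, edgeR adjusted p = 3.54e-08) in SAHA and by 0.94 (SE 0.04, edgeR adjusted p = 2.51e-10) in Smarcb1-RE. Tubb4b (ENSMUSG00000036752, chromosome 2, 25222160 to 25224702, minus strand), a widely used beta isotype that is also abundant in cilia, had 14054, 13123 and 13353 counts in Control, 8950, 8896 and 9219 with SAHA and 2601, 2361 and 2556 in Smarcb1-RE. In SAHA its fall of 0.53 (log2, SE 0.04, edgeR adjusted p = 3.02e-07) was close to that of Tubb5. In Smarcb1-RE Tubb4b fell by 2.39 (SE 0.05, edgeR adjusted p = 8.14e-13), and Control was 5.22-fold above Smarcb1-RE, against 1.92-fold for Tubb5. Of the 75-base windows of Tubb4b, 37.8% also occur in other genes. The processed pseudogene Tubb4b-ps1, which had 28 counts in all 9 libraries together, holds 33.7%. No 75-base window of Tubb5 was shared. At 31 bases, 64.6% of the windows of Tubb4b and 4.43% of those of Tubb5 were shared.

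Tubb6 (ENSMUSG00000001473), a minor class V beta isotype, was near the detection floor. It had 10, 12 and 15 counts in Control, 25, 31 and 35 with SAHA and 1, 2 and 1 in Smarcb1-RE, with no overlap between groups. SAHA raised it by 1.34 (log2, SE 0.28, edgeR adjusted p = 0.000875). With so few counts in Smarcb1-RE, the ratio of depth-scaled counts over the group is given with its exact 95% interval for counting error, which was 8.96 (3.22 to 34.6) for Control over Smarcb1-RE (edgeR adjusted p = 5.46e-05). For SAHA over Smarcb1-RE, the ratio was 22.8 (8.62 to 85.6; edgeR adjusted p = 5.82e-07). Tubb6 was thus the only general isotype called higher in SAHA.

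The general alpha isotypes followed Tubb5. Tuba1b (ENSMUSG00000023004, chromosome 15, 98931425 to 98934565, minus strand), the main alpha isotype of dividing cells, had 54434, 52078 and 50827 counts in Control, 34705, 31529 and 33932 with SAHA and 23411, 22644 and 23167 in Smarcb1-RE. Tuba1b fell by 0.60 (log2, SE 0.04, edgeR adjusted p = 1.56e-07) in SAHA and by 1.14 (SE 0.05, edgeR adjusted p = 2.35e-10) in Smarcb1-RE. Tuba1c (ENSMUSG00000043091, chromosome 15, 99029891 to 99038110, plus strand), a further widely expressed alpha isotype, had 7276, 7066 and 7370 counts in Control, 5671, 5248 and 5436 with SAHA and 2682, 2781 and 2578 in Smarcb1-RE. Tuba1c fell by 0.36 (log2, SE 0.04, edgeR adjusted p = 1.24e-05) and by 1.39 (SE 0.05, edgeR adjusted p = 5.46e-11). These transcripts are alike. Of their 75-base windows, 68.2% for Tuba1a, 71.9% for Tuba1b and 56.7% for Tuba1c are shared with other genes (77%, 75.4% and 63.9% at 31 bases). Their sum was 2941 ± 126 CPM (SD, n = 3) in Control, 2051 ± 60.7 in SAHA and 1310 ± 6.81 in Smarcb1-RE. It fell in both treatments (edgeR adjusted p = 2.61e-07 and 9.87e-11), and this fall of the sum does not rest on how reads were divided among these genes. As counted, Tuba1b made up most of the sum (2202 ± 112 CPM in Control), so the sum cannot show a fall of Tuba1a or Tuba1c alone. Reads shared with genes outside the sum are not covered by it.

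Tuba4a (ENSMUSG00000026202, chromosome 1, 75214228 to 75219865, minus strand), an alpha isotype whose gene does not encode the terminal tyrosine, had 1636, 1757 and 1618 counts in Control, 2256, 2203 and 2362 with SAHA and 491, 497 and 553 in Smarcb1-RE. It was the only alpha isotype to rise in SAHA, by 0.50 (log2, SE 0.05, edgeR adjusted p = 2.76e-06). In Smarcb1-RE it fell by 1.65 (SE 0.06, edgeR adjusted p = 9.25e-11). Stk16, which overlaps Tuba4a on the opposite strand and was looked up after the values were seen, had log2 fold changes of 0.04 in SAHA (edgeR adjusted p = 0.475) and -0.62 in Smarcb1-RE (edgeR adjusted p = 9.26e-08), and the strand setting of the counting is not given in the sources used here.

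**Figure D2:**
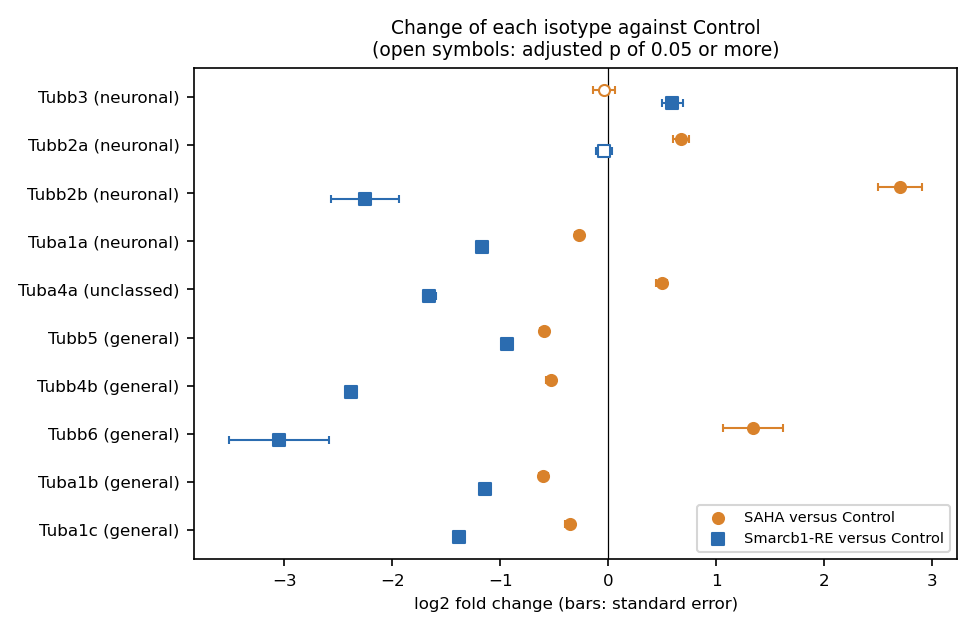
Log2 fold change against Control (horizontal axis) of each isotype in SAHA (circles) and Smarcb1-RE (squares), with bars for the standard error and open symbols for an adjusted p of 0.05 or more (edgeR's quasi-likelihood test). Tubb2b, Tubb6 and Tuba4a lay on opposite sides of 0 in the 2 treatments, and Tubb6 in Smarcb1-RE rests on 1 to 2 counts per library.

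The direct comparison of Smarcb1-RE with SAHA called Tubb3 higher and the other 9 isotypes lower, beside 37.7% and 36.8% of all tested genes, each of the 10 without overlap between libraries (40.7% of all tested genes did not overlap on the higher and 39.2% on the lower side). At an absolute log2 difference of at least 1, 0 isotypes were higher and 5 lower, beside 11.5% and 8.21% of all genes. Tubb3 differed by 0.63 (log2, SE 0.10, edgeR adjusted p = 7.06e-05) and Tubb2a by -0.71 (SE 0.07, edgeR adjusted p = 1.96e-06). The smallest difference among the general isotypes was that of Tubb5, at -0.34 (log2, SE 0.04, edgeR adjusted p = 2.82e-06). For Tubb4b it was -1.85 (log2, SE 0.05, edgeR adjusted p = 4.35e-12), and for Tuba4a -2.15 (SE 0.06, edgeR adjusted p = 9.93e-12).

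Levels of different genes were compared as CPM per kilobase of the longest annotated transcript. In Control the order was Tuba1b (1263 ± 64.4 CPM per kilobase, SD, n = 3), Tubb5 (580 ± 9.52), Tubb4b (355 ± 16.6), Tuba1a (241 ± 6.53), Tuba1c (153 ± 2.72), Tuba4a (24.7 ± 1.37), Tubb2a (6.32 ± 0.225), Tubb3 (2.82 ± 0.210), Tubb2b (0.640 ± 0.118) and Tubb6 (0.294 ± 0.0547). No neighbours in this order overlapped between libraries. In SAHA the order changed once, with Tubb2b (4.19 ± 0.795) above Tubb3 (2.73 ± 0.111). In Smarcb1-RE, Tuba1a (107 ± 1.93) stood above Tubb4b (67.9 ± 2.21), and the rest kept the order of Control. The order depends on the length used. With the union of exons as length (2088 bases for Tubb4b, 1803 for Tuba1a), Tuba1a stood above Tubb4b in SAHA too, without overlap. In Smarcb1-RE the neighbours Tubb4b and Tuba1c then overlapped, as did Tuba4a and Tubb2a. Neuronal beta isotypes were thus minor transcripts in every group.

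The summed level of the 6 beta isotypes was 945 ± 18.6 CPM per kilobase (SD, n = 3) in Control, 647 ± 8.52 in SAHA and 381 ± 11.6 in Smarcb1-RE, so that Control stood 1.46-fold above SAHA and 2.48-fold above Smarcb1-RE. The 4 alpha isotypes summed to 1683 ± 72.3, 1188 ± 34.7 and 747 ± 3.65 CPM per kilobase. All 10 isotypes took 0.513%, 0.359% and 0.226% of the normalized counts in Control, SAHA and Smarcb1-RE. Within the beta pool, Tubb5 held 61.4% ± 1.16 (SD, n = 3) in Control, 59.3% ± 0.390 in SAHA and 79.4% ± 0.219 in Smarcb1-RE. Tubb4b held 37.5% ± 1.15, 38.0% ± 0.232 and 17.8% ± 0.117, and its level as a percentage of that of Tubb5 was 61.2, 64.0 and 22.5. Smarcb1-RE therefore differed from the other groups in the Tubb4b to Tubb5 balance, and SAHA left it within the range of the Control libraries, which was 58.8% to 64.6%, in 2 of 3 libraries.

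Tubb3 and Tubb2a held larger shares of the smaller beta pools. Tubb3 made up 0.298% ± 0.0221 of the beta pool in Control, 0.423% ± 0.0197 in SAHA and 1.12% ± 0.0552 in Smarcb1-RE, although its own level did not pass the test in SAHA. Tubb2a made up 0.669%, 1.56% and 1.62%, and Tubb2b 0.0678%, 0.647% and 0.0344%. In the alpha pool Tuba1b held 75.1%, 70.1% and 76.8%, Tuba1a 14.3%, 16.9% and 14.3%, and Tuba4a 1.47%, 2.93% and 1.05%.

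**Figure D3:**
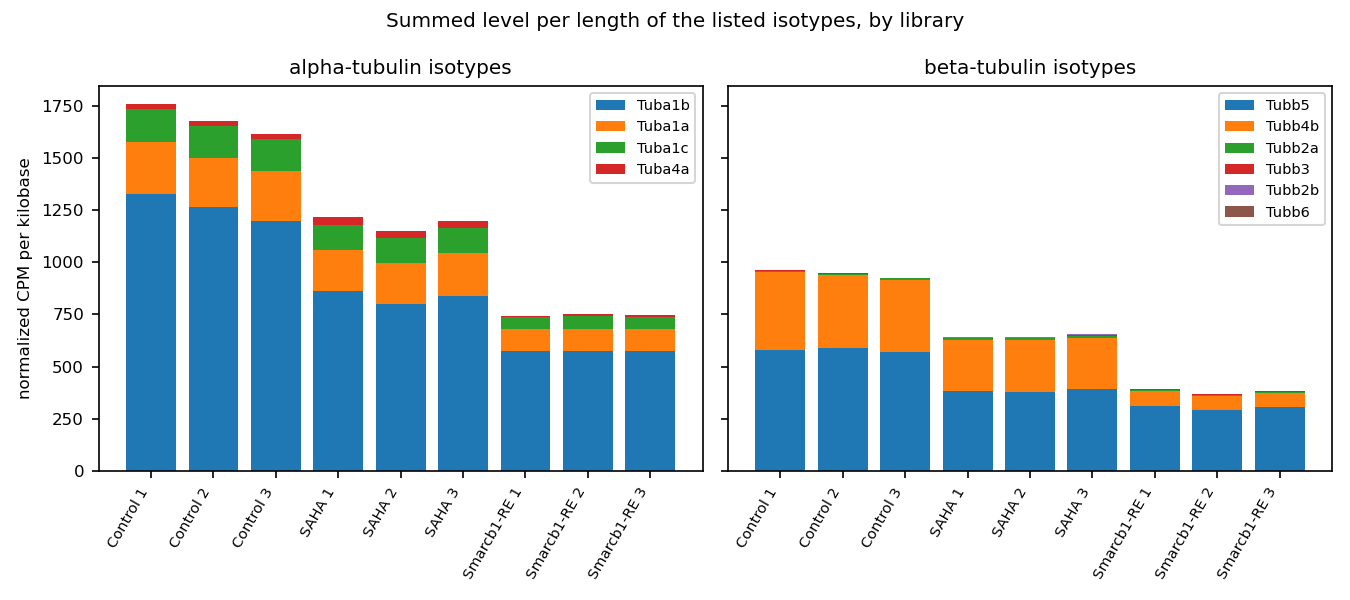
Stacked TMM-normalized CPM per kilobase (vertical axis, from 0) of the 4 alpha and the 6 beta isotypes in each library. Both pools fell from Control to SAHA and to Smarcb1-RE, and the Tubb4b segment went from 355 in Control to 67.9 CPM per kilobase in Smarcb1-RE.

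The contrast of neuronal with general isotypes was taken as the log2 ratio of their summed levels per kilobase in each library. It was -3.23 ± 0.03 (SD, n = 3) in Control, -2.87 ± 0.06 in SAHA and -3.09 ± 0.03 in Smarcb1-RE, with no overlap between groups. The differences from Control were 0.36 and 0.14. Tuba1a made up 96.1%, 92.2% and 91.1% of the summed neuronal isotypes. The log2 ratio of Tuba1a alone to the general isotypes differed from Control by 0.30 in SAHA and 0.06 in Smarcb1-RE. Without Tuba1a the differences were 1.37 in SAHA and 1.34 in Smarcb1-RE. With beta isotypes alone, the ratio was -6.58 ± 0.08, -5.22 ± 0.10 and -5.14 ± 0.06, and the differences were 1.37 and 1.44. The parts of the beta ratio differed between treatments. The summed neuronal beta level was 9.78 ± 0.468 CPM per kilobase (SD, n = 3) in Control, 16.99 ± 1.22 in SAHA and 10.5 ± 0.546 in Smarcb1-RE, which is 0.80 and 0.11 above Control on the log2 scale. The summed general beta level was 936 ± 18.8, 630 ± 8.00 and 370 ± 11.2 CPM per kilobase, which is -0.57 and -1.34 against Control on the log2 scale. In Smarcb1-RE the higher beta ratio thus lay mostly in the lower general isotypes. No test was made of these ratios, as they are scores over chosen genes.

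**Figure D4:**
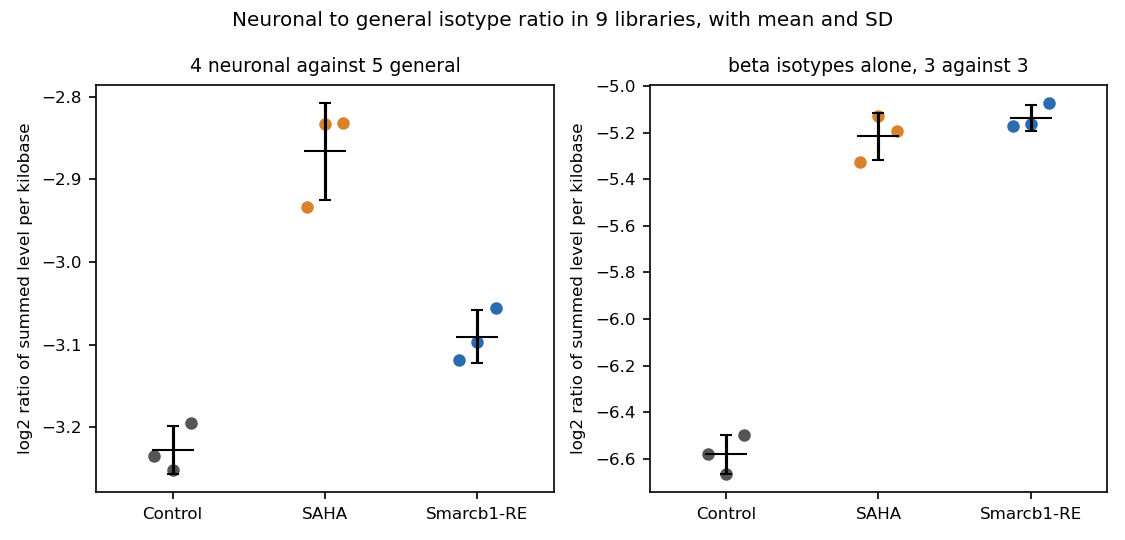
Log2 ratio of the summed neuronal to the summed general isotypes (vertical axes, not from 0) per library (points), with mean and SD of 3 libraries per group, for all classed isotypes and for beta isotypes alone. SAHA lay above Smarcb1-RE with Tuba1a included, whereas with beta isotypes alone SAHA and Smarcb1-RE libraries overlapped, above Control.

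Neuron markers did not move as a block with these isotypes. Their summed level was 63.1 to 65.6 CPM in Control, 154 to 159 in SAHA and 57.4 to 61.7 in Smarcb1-RE. Of 8 markers, 4 (Rbfox3, Syt1, Nefl and Gap43) had at most 3 counts in any library, with Gap43 at 0 in all. In SAHA 1 of 3 tested markers rose and 2 fell, beside 32.6% higher and 34.3% lower of all tested genes. In Smarcb1-RE 1 rose, 1 fell and 1 was not called, beside 39.2% and 38.6%. With 3 tested markers these counts cannot be set apart from the shares of all genes. Snap25, a vesicle fusion protein, led the sum with 42.4 ± 0.735 CPM (SD, n = 3) in Control, 142 ± 3.01 in SAHA and 33.8 ± 0.807 in Smarcb1-RE. Summed B-cell markers were 0.936 to 1.14 CPM in Control, 1.24 to 1.86 in SAHA and 7.25 to 7.97 in Smarcb1-RE, where Ms4a1 and Pax5 were higher, and myeloid markers summed to at most 0.68 CPM. The part of these values in the isotype results was not tested.

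Of 10 other tubulin genes, 6 were tested. SAHA raised 2 (Tubb1 and Tubd1) and lowered 2 (Tubg1 and Tube1), and Smarcb1-RE raised 2 (Tubb4a and Tubg2) and lowered 3 (Tubb1, Tubg1 and Tubd1), shares near those of all tested genes in SAHA (32.6% higher, 34.3% lower) and given beside 39.2% and 38.6% in Smarcb1-RE. Tubb4a, the class IVa beta isotype of brain, had 63, 67 and 73 counts in Control, 81, 73 and 81 with SAHA and 194, 178 and 189 in Smarcb1-RE. Its log2 fold change was 0.26 in SAHA (SE 0.12, edgeR adjusted p = 0.0799) and 1.51 in Smarcb1-RE (SE 0.11, edgeR adjusted p = 5.48e-08). Like Tubb3, it stood apart in Smarcb1-RE. Tubb1, the beta isotype of platelets, rose from 39.5 ± 2.96 CPM (SD, n = 3) to 68.4 ± 2.67 in SAHA (log2 fold change 0.79, edgeR adjusted p = 1.19e-07). It fell to 16.8 ± 0.723 CPM in Smarcb1-RE (log2 fold change -1.23, edgeR adjusted p = 2.71e-09). Tubg1, the gamma-tubulin of the nucleating ring complex, fell by 0.55 in SAHA (log2, edgeR adjusted p = 2.07e-07) and by 1.15 in Smarcb1-RE (edgeR adjusted p = 1.6e-10), while Tubg2 rose by 0.54 in Smarcb1-RE (edgeR adjusted p = 0.000203). Tubd1, delta-tubulin, rose by 0.66 in SAHA (edgeR adjusted p = 1.69e-07), and its fall by 0.26 in Smarcb1-RE (edgeR adjusted p = 0.00062) was lost with library totals (-0.10, edgeR adjusted p = 0.112). Tube1, epsilon-tubulin, fell by 0.35 in SAHA (edgeR adjusted p = 0.000883). Tuba3a, Tuba3b and Tuba8 had 1 count each in all libraries and Tubal3 had 0.

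Proteins that fold, nucleate and bind tubulin were then described by their counts of calls. Of 20 tested folding genes, 12 fell and 3 rose in SAHA (median log2 fold change -0.21), and 16 fell and 3 rose in Smarcb1-RE (median -0.70). Of all tested genes, 34.3% were lower and 32.6% higher in SAHA, and 38.6% and 39.2% in Smarcb1-RE. Without Control replicate 1, 5 rose in SAHA. Cct3, a subunit of the chaperonin that folds tubulin and actin, fell by 0.48 in SAHA (SE 0.04, edgeR adjusted p = 1.08e-06) and by 1.31 in Smarcb1-RE (SE 0.05, edgeR adjusted p = 8.06e-11). A second subunit, Cct8, fell by 1.05 in Smarcb1-RE (edgeR adjusted p = 2.04e-10), and Pfdn1, of the prefoldin complex that hands tubulin to the chaperonin, by 0.98 (edgeR adjusted p = 8.78e-08). In SAHA, Tbcb, a tubulin folding cofactor, fell by 0.80 (edgeR adjusted p = 4.46e-08) and the prefoldin subunit Pfdn4 by 0.50 (edgeR adjusted p = 0.000275).

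Of 8 gamma-tubulin ring complex genes, 6 fell and 0 rose in SAHA (median log2 fold change -0.52), with 2 not called, beside 34.3% lower and 32.6% higher among all tested genes. The largest falls were those of Tubgcp2 (by 0.79, edgeR adjusted p = 1.58e-08), Tubgcp5 (by 0.66, edgeR adjusted p = 1.13e-07) and Tubgcp3 (by 0.65, edgeR adjusted p = 5.11e-08), subunits of the complex that starts new microtubules. In Smarcb1-RE 4 fell and 1 rose (median -0.14), beside 38.6% and 39.2% of all genes, and with library totals 2 fell and 3 rose. Nedd1, which anchors the complex at centrosomes, fell by 0.37 (edgeR adjusted p = 5.85e-06), Tubgcp5 by 0.28 (edgeR adjusted p = 9.17e-05), and Mzt2 rose by 0.27 (edgeR adjusted p = 0.0195). Between Smarcb1-RE and SAHA, 7 of these 8 genes were higher in Smarcb1-RE and 0 lower, beside 37.7% and 36.8% of all tested genes.

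Of 17 tested enzymes that modify tubulin, 4 rose and 8 fell in SAHA (median log2 fold change -0.15), beside 32.6% higher and 34.3% lower of all tested genes. In Smarcb1-RE 7 rose and 4 fell (median 0.08), beside 39.2% and 38.6%, and the 7 that rose are near the share of all genes. With library totals the median was 0.24, with 9 higher and 3 lower, and without Control replicate 1 it was 0.02. Ttll7, which adds glutamates to the tail of beta-tubulin, had 86, 97 and 101 counts in Control, 189, 172 and 200 with SAHA and 2975, 2989 and 2942 in Smarcb1-RE. It rose by 1.03 in SAHA (log2, SE 0.08, edgeR adjusted p = 3.3e-07) and by 5.02 in Smarcb1-RE (SE 0.06, edgeR adjusted p = 2.8e-14), or 32.4-fold. Atat1, the acetyltransferase of alpha-tubulin, rose by 0.86 (edgeR adjusted p = 0.000193) in SAHA and by 1.56 (edgeR adjusted p = 3.98e-07) in Smarcb1-RE. Hdac6, the deacetylase of alpha-tubulin and a known target of SAHA, rose by 0.75 in SAHA (edgeR adjusted p = 1.32e-06) and by 0.53 in Smarcb1-RE (edgeR adjusted p = 1.96e-05). Agbl3, which trims glutamates from tubulin tails, rose by 1.41 in Smarcb1-RE (edgeR adjusted p = 2.89e-05).

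Only 5 of 12 neuronal microtubule-associated proteins passed the filter, of which 3 rose and 1 fell in SAHA (median log2 fold change 0.48) and 3 rose and 2 fell in Smarcb1-RE (median 0.41). The shares of all tested genes were 32.6% higher and 34.3% lower in SAHA and 39.2% and 38.6% in Smarcb1-RE. Mapt, which encodes tau, had 46, 47 and 40 counts in Control, 92, 96 and 100 with SAHA and 119, 121 and 120 in Smarcb1-RE. It rose by 1.16 (SE 0.14, edgeR adjusted p = 9.75e-06) and by 1.48 (SE 0.14, edgeR adjusted p = 5.39e-07). Dclk2, a doublecortin-like kinase, rose by 0.87 in Smarcb1-RE (edgeR adjusted p = 6.68e-08) and Mapre3, an end-binding protein, by 0.71 in SAHA (edgeR adjusted p = 8.03e-06). Map1a fell by 1.00 in SAHA (edgeR adjusted p = 5.37e-07), and Map6, which stabilizes microtubules against cold, fell by 0.42 in Smarcb1-RE (edgeR adjusted p = 3.12e-05).

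Of 16 tested general microtubule regulators, 5 rose and 7 fell in SAHA (median log2 fold change -0.06), beside 32.6% higher and 34.3% lower of all tested genes. In Smarcb1-RE 1 rose and 11 fell (median -0.30), beside 39.2% and 38.6%, and library totals gave 4 higher and 8 lower (median -0.14). Mapre1, an end-binding protein of growing plus ends, fell by 0.47 in SAHA (edgeR adjusted p = 7.73e-07) and by 0.71 in Smarcb1-RE (edgeR adjusted p = 8.13e-09). In SAHA, Stmn1, which sequesters tubulin dimers, fell by 0.56 (edgeR adjusted p = 3.26e-06). In Smarcb1-RE, Mapre2 fell by 1.11 (edgeR adjusted p = 8.52e-10) and Kif2c, a depolymerizing kinesin of mitosis, by 0.67 (edgeR adjusted p = 3.73e-08).

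**Figure D5:**
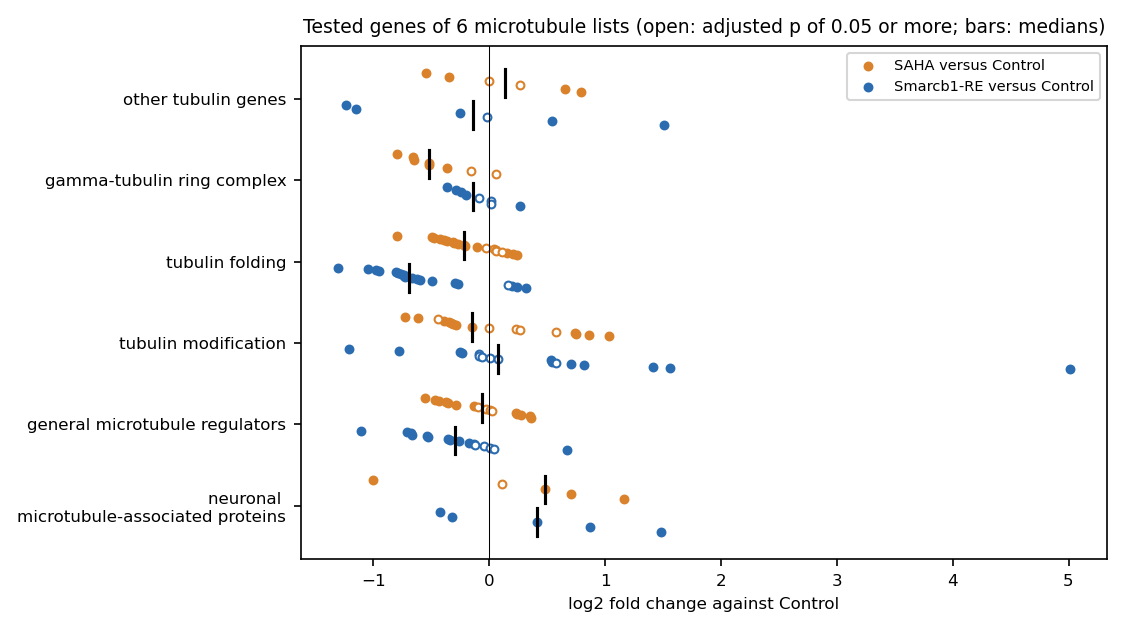
Log2 fold change against Control (horizontal axis) of the tested genes of 6 microtubule lists in SAHA and Smarcb1-RE, with open points for an adjusted p of 0.05 or more and vertical bars for medians. The folding list had its median lowest, at -0.70 in Smarcb1-RE, and the far point at 5.02 is Ttll7.

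Lastly, the genes whose profile over the 9 libraries was most like that of Tubb3 or Tubb5 were taken from the 11319 tested genes above the level limit (log2 CPM of 1 on average), by Pearson's r of log2 CPM, as a description. For Tubb3 these were Gm4631 (r = 0.9968), Inpp5k (0.9956), Zfp874b (0.9938), Olfr1284 (0.9923) and Panx1 (0.9918). Their log2 fold changes lay between -0.09 and 0.02 in SAHA and between 0.58 and 2.31 in Smarcb1-RE. For Tubb5 these were Sgo2a (r = 0.9980), Sf3b2 (0.9980), Hadh (0.9975), Sorbs3 (0.9975) and Ociad2 (0.9969), with log2 fold changes from -0.79 to -0.40 in SAHA and from -1.30 to -0.62 in Smarcb1-RE. The 9 points form 3 groups, so r mostly describes the group means. None of the other 9 isotypes was among these genes.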

How the data were processed

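The authors deposited a table of estimated counts per Ensembl gene for 9 bulk RNA-seq libraries of T15 cells (directional kit, single-end reads), neither normalized nor pooled. The submitters' processing notes name FastQC 0.11.8, MultiQC 1.7, Salmon 0.14.1, DESeq2 1.22.2 and GRCm38, without their roles. Of values above 0, 52.4% were not whole, and all were rounded here. Symbols and positions came from GENCODE M21 (GRCm38), which held 99.3% of the 35288 identifiers. One model was fitted to the 3 groups in R 4.3.3 with edgeR 4.0.16 (TMM, filterByExpr with a minimum count of 10, glmQLFit, glmQLFTest, Benjamini-Hochberg adjustment). SE is the size of the log2 fold change over the square root of the F statistic. The fit was tested on simulated data. CPM per kilobase used the longest annotated transcript. Named genes were the 10 isotypes, Smarcb1, other tubulin genes, per list and comparison with Control up to 3 called genes with the largest change (average log2 CPM of at least 1, groups without overlap), and 5 genes most like Tubb3 and Tubb5; a gene that the rule names is not reported here. The members and lists were chosen with earlier results of these data known. Alternatives were DESeq2 1.42.0, median-ratio factors, library totals, other filters and thresholds, pairwise fits, a replicate block, summed paralogs, another length and leaving out each library.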

Additional observations from a re-analysis of the deposited data

How the results depend on the processing

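Of 563 log2 fold changes of single isotypes under all alternatives, 545 kept their direction and their side of the threshold. Alternatives that change only the threshold reuse the main fit, so in these no direction could turn. Each sum of paralogs was entered for each of its genes. The 3 that reversed were those of Tubb2a in Smarcb1-RE against Control, which did not pass the test at -0.04 and was 0.12 with library totals, 0.018 with at least 10 counts in every library and 0.016 without Smarcb1-RE replicate 2 (-0.084 to 0.016 without each library in turn). Of the 15 that lost their call, 14 did so under a minimum absolute log2 fold change of 1 and 1 was the sum that holds Tubb2b in Smarcb1-RE (-0.18), mostly Tubb2a, all 15 by construction. Leaving out each library in turn left the counts of isotypes called as they were (4 higher and 5 lower in SAHA, 1 and 8 in Smarcb1-RE, 1 and 9 between them), and so did DESeq2 and the replicate block. With at least 10 counts in every library, 2 isotypes were called higher in SAHA, since Tubb2b and Tubb6 were not tested. With the minimum fold change, SAHA had 2 higher and 0 lower, Smarcb1-RE had 0 higher, and Smarcb1-RE against SAHA had 0 higher and 5 lower. Of 54 levels per kilobase, shares and ratios under alternatives, 31 stayed within the SD over libraries of the main value and 23 moved by more. With the union of exons as length, the level per kilobase fell for genes with a longer union, such as Tubb5 (3327 against 2649 bases). The Tubb5 share of the beta pool in SAHA was then 59.8% and the Tuba1b share of the alpha pool in Smarcb1-RE 76.5%. The differences from Control in the log2 ratio of neuronal to general isotypes were 1.37 in SAHA and 1.34 in Smarcb1-RE without Tuba1a, and 1.37 and 1.44 for beta isotypes alone. For all classed isotypes, where they were 0.36 and 0.14, they ranged from 0.344 to 0.395 and from 0.120 to 0.153 without each library in turn. Alternatives for the other lists were chosen after seeing the data. Folding genes had 5 higher in SAHA without Control replicate 1, where Arl2 and Pfdn6 passed, and library totals in Smarcb1-RE gave 3 higher and 2 lower ring complex genes, 1 lower neuronal microtubule-associated protein and 4 higher general regulators. Libraries with the same replicate number did not deviate together (mean r = -0.003 over 9 pairs, -0.0717 to 0.0366), and 0 of 9 correlated best with their own number in both other groups, so the numbers were not read as pairs.

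Precision was limited for Tubb6 in Smarcb1-RE and Smarcb1 in Control, which rest on a few counts per library, and for Tubb2a, Tubb2b, Tubb4b, Tuba1a, Tuba1b and Tuba1c, whose transcripts share sequence. With 3 libraries a group of 1 cell line, the results describe these cultures. Transcript levels do not give the amount of tubulin protein.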
